A study of Mus musculus with 16 samples.

Results

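Insulin-like growth factors, their receptors and their binding proteins were followed in mouse striatum after a chemical injury. The 10 members were the rows of the deposited read count table whose gene symbol was Igf1, Igf2, Igf1r, Igf2r or Igfbp2 to Igfbp7, and all 10 were found among 19457 genes. RNA from the brain striatum was sequenced from mice of genotype GS, read as the LRRK2 G2019S genotype of the series title, and from WT mice. Each genotype was sampled intact and at 6 h, 3 d and 15 d after injury, which gave 8 groups of 2 libraries each. The injury was a unilateral injection of 0.8 µl of 500 mM ATP into the striatum. The intact groups are the baseline, and no group with a needle and no ATP was analysed here, so effects of ATP and of the injection cannot be told apart. The sources used here do not give how the G2019S allele was introduced, the strain, the age and the sex of the mice, or whether tissue from several mice was pooled.

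IGF1 and IGF2 are small secreted peptides related to insulin. Both signal through the receptor tyrosine kinase IGF1R, which recruits the adaptors IRS1 and IRS2 and drives the PI3K-AKT and MAP kinase pathways that support cell growth and survival. IGF2R, the cation-independent mannose 6-phosphate receptor, binds IGF2 and carries it to lysosomes. The binding proteins hold the ligands outside the cell and either withhold them from the receptor or deliver them to it, depending on proteases and on attachment to matrix. In the adult brain Igf2 is known mainly from choroid plexus and leptomeninges, and Igf1 from neurons, vessels and reactive microglia.

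Igfbp2 and Igfbp5 are the only neighbours among the members in the genome. In GRCm38, which is mm10, Igfbp2 is on the plus strand at chr1:72824503-72852474 and Igfbp5 on the minus strand at chr1:72857932-72874884, so that their 3′ ends face each other across 5.457 kb. The ligand genes are Igf1 at chr10:87858265-87937042 (plus strand) and Igf2 at chr7:142650766-142666816 (minus strand). The receptor genes are Igf1r at chr7:67952827-68233668 (plus strand) and Igf2r at chr17:12682406-12769664 (minus strand). The other binding protein genes are Igfbp3 at chr11:7206086-7213923 (minus strand), Igfbp4 at chr11:99041244-99054392 (plus strand), Igfbp6 at chr15:102144362-102149511 (plus strand) and Igfbp7 at chr5:77349240-77408041 (minus strand). All 10 are protein-coding genes in GENCODE M21, and the counts are per gene, so promoters and isoforms are not resolved.

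RefSeq start sites gave 14 promoter windows for the 10 members, each with 250 bases before the start and 50 after it. Shown are those of Igfbp5, Igfbp2, Igfbp3 and Igfbp7, the 4 binding protein genes whose RNA was raised at 3 d in both genotypes, of Igf1, which was raised in GS striata, and of Igfbp4, as an example of a gene that was lower. Igfbp2 has 2 windows, and both are shown. Capitals mark matches, on either strand, to a TATA box (TATAAA), a GC box (GGGCGG), an AP-1 site (TGANTCA) or an E-box (CACGTG). All are 300 bases, 5′ to 3′ on the gene's own strand, from RefSeq on GRCm38.p6.
Igfbp5: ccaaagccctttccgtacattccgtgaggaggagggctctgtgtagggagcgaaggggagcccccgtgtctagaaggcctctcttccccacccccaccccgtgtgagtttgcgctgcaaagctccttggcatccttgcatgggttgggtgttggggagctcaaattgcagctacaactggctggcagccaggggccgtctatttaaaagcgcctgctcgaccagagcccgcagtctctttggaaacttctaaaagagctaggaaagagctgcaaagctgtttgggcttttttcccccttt
Igfbp2: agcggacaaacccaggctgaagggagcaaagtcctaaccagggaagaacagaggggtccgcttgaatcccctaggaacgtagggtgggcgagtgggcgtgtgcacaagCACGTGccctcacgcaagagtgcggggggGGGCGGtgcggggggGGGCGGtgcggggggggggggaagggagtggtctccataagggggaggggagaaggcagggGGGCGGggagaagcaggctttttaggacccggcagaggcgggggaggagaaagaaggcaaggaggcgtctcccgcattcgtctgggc
Igfbp2, second window: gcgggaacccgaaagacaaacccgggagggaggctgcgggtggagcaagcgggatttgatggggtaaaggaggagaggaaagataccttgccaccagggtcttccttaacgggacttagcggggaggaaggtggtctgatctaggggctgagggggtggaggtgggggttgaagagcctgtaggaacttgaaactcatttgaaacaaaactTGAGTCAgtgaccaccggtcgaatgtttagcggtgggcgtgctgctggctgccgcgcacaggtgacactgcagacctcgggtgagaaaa
Igfbp3: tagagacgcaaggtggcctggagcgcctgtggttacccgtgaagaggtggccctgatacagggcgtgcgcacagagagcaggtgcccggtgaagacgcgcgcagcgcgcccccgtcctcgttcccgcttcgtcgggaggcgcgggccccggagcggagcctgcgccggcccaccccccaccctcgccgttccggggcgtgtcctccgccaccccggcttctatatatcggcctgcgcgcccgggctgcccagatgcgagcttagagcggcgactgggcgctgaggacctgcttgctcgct
Igfbp7: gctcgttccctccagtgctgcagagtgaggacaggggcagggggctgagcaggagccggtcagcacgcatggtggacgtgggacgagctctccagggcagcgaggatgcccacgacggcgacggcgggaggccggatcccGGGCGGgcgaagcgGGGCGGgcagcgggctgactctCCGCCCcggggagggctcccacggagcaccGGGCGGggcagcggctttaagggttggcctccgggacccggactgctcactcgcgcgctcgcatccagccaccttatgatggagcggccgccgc
Igf1: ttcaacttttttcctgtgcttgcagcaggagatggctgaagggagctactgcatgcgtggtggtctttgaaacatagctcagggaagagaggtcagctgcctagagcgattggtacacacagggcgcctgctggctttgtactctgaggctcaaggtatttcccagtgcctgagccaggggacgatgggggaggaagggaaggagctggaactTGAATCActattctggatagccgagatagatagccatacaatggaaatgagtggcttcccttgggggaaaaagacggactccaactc
Igfbp4: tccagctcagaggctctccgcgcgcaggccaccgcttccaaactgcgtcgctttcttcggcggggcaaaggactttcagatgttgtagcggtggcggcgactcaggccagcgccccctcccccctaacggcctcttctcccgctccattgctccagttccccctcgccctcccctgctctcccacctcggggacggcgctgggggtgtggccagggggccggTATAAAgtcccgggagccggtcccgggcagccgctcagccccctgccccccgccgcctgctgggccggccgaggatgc
The Igfbp5 window is chr1:72874816-72875115 (minus strand), the first Igfbp2 window chr1:72824230-72824529 and the second chr1:72825137-72825436 (both plus strand), the Igfbp3 window chr11:7213874-7214173 (minus strand), the Igfbp7 window chr5:77407996-77408295 (minus strand), the Igf1 window chr10:87860861-87861160 (plus strand) and the Igfbp4 window chr11:99040994-99041293 (plus strand). The first Igfbp2 window had 3 GC boxes and the Igfbp7 window 4, and the first Igfbp2 window also had an E-box that begins 142 bases before the start. The second Igfbp2 window had no GC box and no E-box, and held an AP-1 match that begins 39 bases before its start. Igfbp5 and Igfbp3 had none of the 4 motifs in these windows. Igf1 had an AP-1 match that begins 37 bases before the start, and Igfbp4 a TATA box that begins 28 bases before it. Of 32851 mouse promoter windows of the same length, 35.7% held a GC box, 13.6% a TATA box, 7.81% the AP-1 letters and 7.15% the E-box letters. The windows therefore differ among genes whose RNA moved in the same direction, and a match is a description of letters only.

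The libraries held 49220578 to 63948110 counts, and levels are given as CPM, the usual depth-scaled count, after TMM scaling of library sizes. Every gene in the table had at least 1 count in every library, and all 10 members passed the low-count filter that left 18813 genes. The member with the fewest counts in a library was Igf1, with 152 in GS intact replicate 2, and the one with the most was Igfbp5, with 27057 in GS 15 d replicate 2. Striatal markers were high in all 16 libraries, with Drd1 at 185 to 311 CPM and Drd2 at 231 to 421 CPM. A cortical marker, Slc17a7, was highest in WT intact replicate 1 (136 CPM) and WT 6 h replicate 2 (72.7 CPM), and a choroid plexus marker, Ttr, in GS intact replicate 1 (359 CPM). Fold changes are log2 values from edgeR's quasi-likelihood test with standard errors, a gene was called at a Benjamini-Hochberg adjusted p under 0.05 over all genes tested, and each group has n = 2 libraries. In bulk tissue, fewer cells of a type and less RNA per cell cannot be told apart.

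Igfbp5 was the most abundant member per length of exon in all 8 groups and Igf1 the least abundant. CPM values were divided by the exonic length of each gene to compare levels between genes (CPM per kb). Igfbp5 averaged 20.3 CPM per kb in GS intact and 20.7 in WT intact striata, and 74.2 in GS and 63.3 in WT striata at 15 d. Its lowest library lay above the highest library of the next member in every group. Igf1 averaged 0.281 CPM per kb in GS intact and 0.418 in WT intact striata, and 0.989 in GS and 0.598 in WT striata at 15 d. Between these ends the order was less firm, and in GS intact striata Igfbp4 overlapped Igfbp7, and Igfbp2, Igfbp6, Igf2 and Igf2r formed a run in which each overlapped the next.

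**Figure D1:**
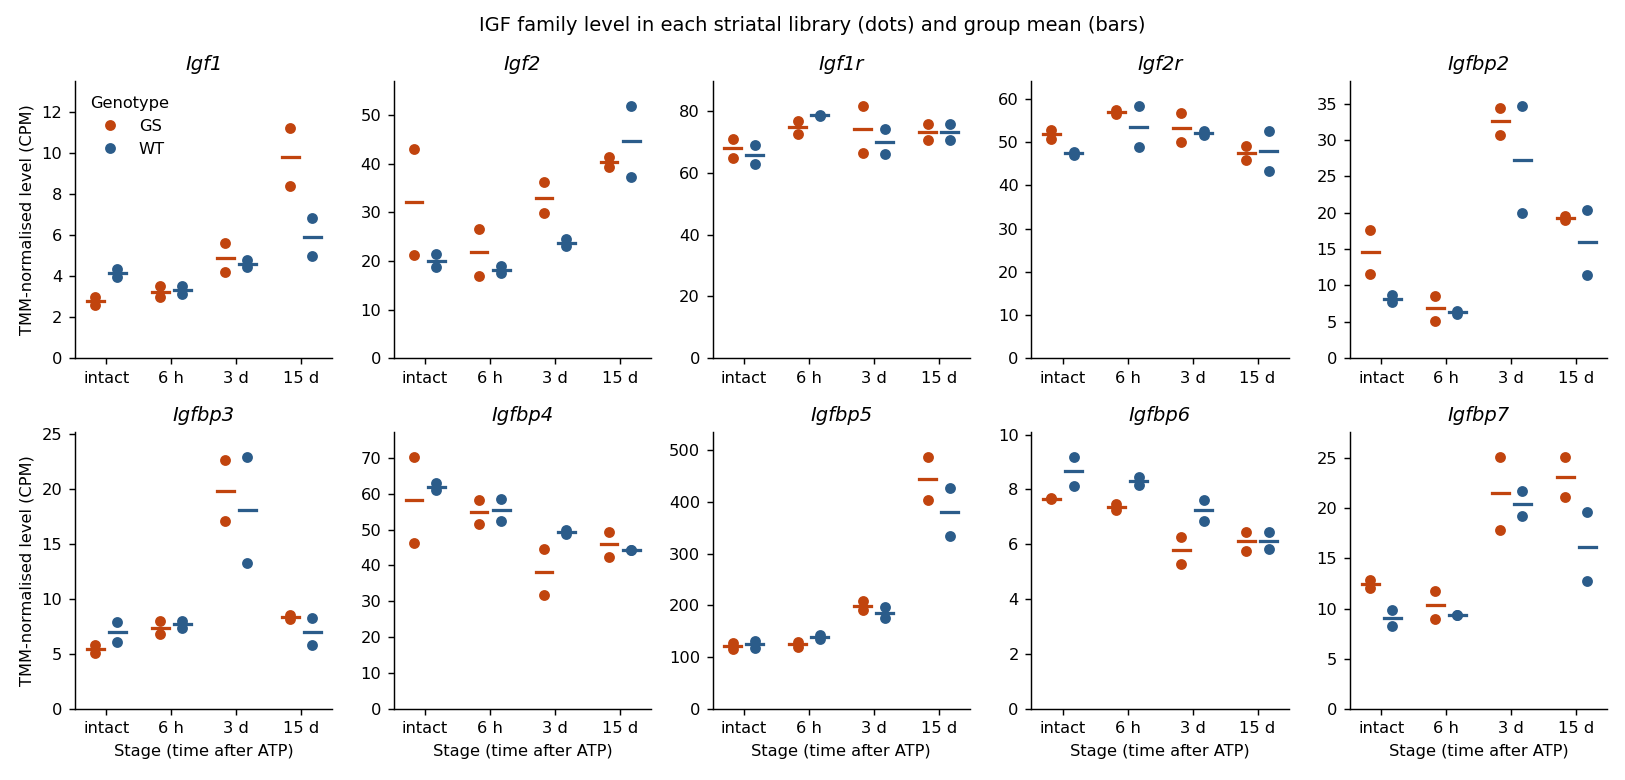
Level of each member (TMM-normalised CPM, vertical axis from 0) in GS (left of each pair) and WT libraries by stage; dots are libraries and bars are means of 2. Igfbp5 stands above 330 CPM in all 4 libraries at 15 d, and Igfbp3 has its highest 4 libraries at 3 d.

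Few members were called at 6 h, and most of the binding proteins were called at 3 d. At 6 h, 1 of 10 members was called in GS striata, where 13.8% of all genes were called (7.47% higher, 6.37% lower), and 0 of 10 in WT striata, where 4.09% were called. In WT striata at 6 h, 1 member reached an unadjusted p under 0.05 in edgeR, and DESeq2 and limma-voom also called 0. At 3 d, 7 of 10 were called in GS striata (5 higher, 2 lower), against 35.1% of all genes (18.6% higher, 16.4% lower). In WT striata at 3 d 4 of 10 were called (all higher), against 27.4% of all genes (14.7% higher, 12.7% lower). At 15 d, 3 of 10 were called in GS striata (all higher), a share below the 37.1% of all genes (19.4% higher, 17.6% lower). In WT striata at 15 d 6 of 10 were called (4 higher, 2 lower), against 25.4% of all genes (14.2% higher, 11.2% lower). From 3 d to 15 d, 3 of 10 were called in GS striata (2 higher, 1 lower) while 2.1% of all genes were (1.08% higher, 1.02% lower), and 2 of 10 in WT striata (1 higher, 1 lower) while 3.2% were (1.63% higher, 1.57% lower). The median log2 fold change of the 10 members at 3 d was 0.42 in GS and 0.20 in WT striata, beside −0.01 over all genes in each genotype. At 15 d it was 0.36 in GS and 0.33 in WT striata, beside −0.01 in GS and −0.02 in WT striata over all genes. The 15 d and 3 d comparisons of a genotype share its intact libraries.

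**Figure D2:**
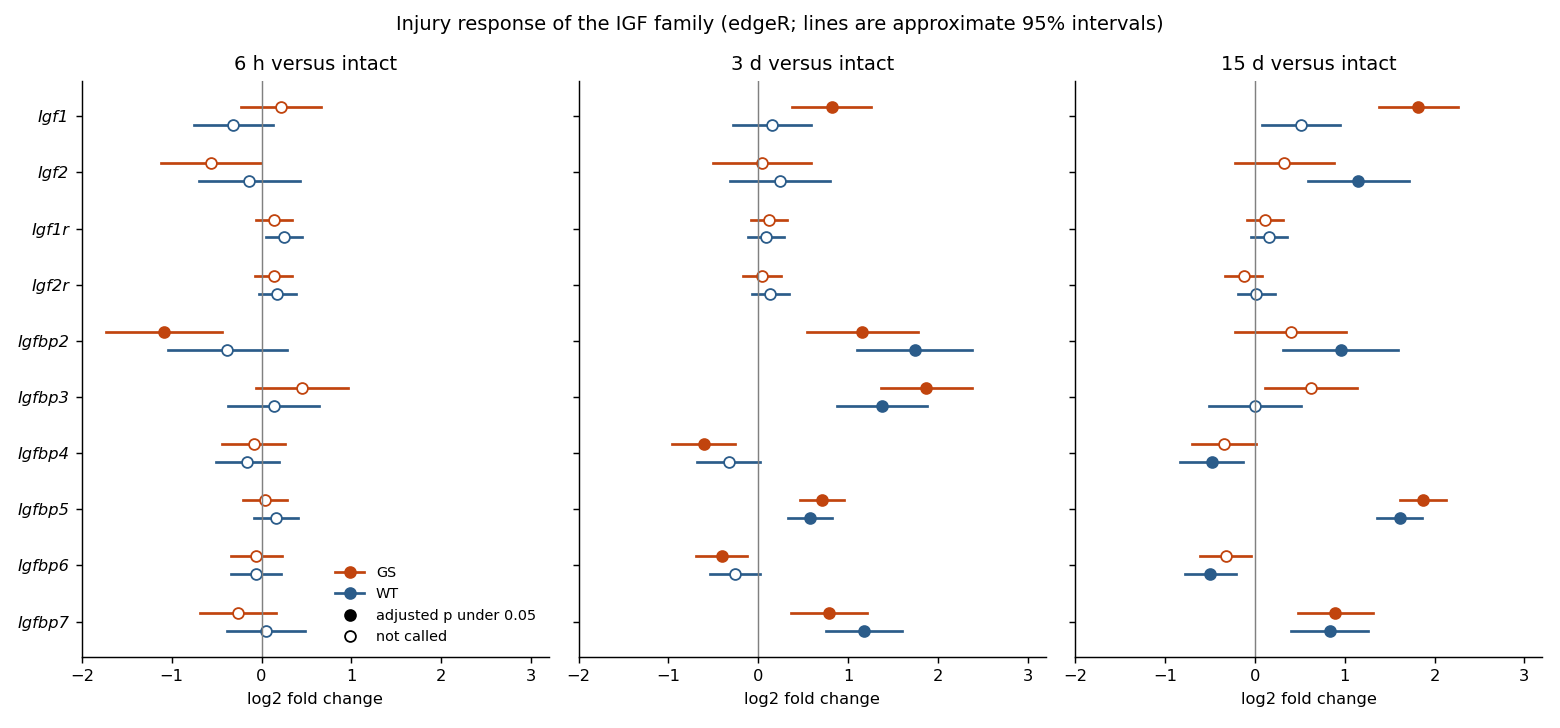
Log2 fold change of each member against intact striatum of the same genotype (horizontal axis) at 6 h, 3 d and 15 d; GS is drawn above WT, lines are approximate 95% intervals and filled points passed an adjusted p of 0.05. Igfbp2, Igfbp3, Igfbp5 and Igfbp7 are filled in both genotypes at 3 d, and Igf1r and Igf2r nowhere.

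Igf1, the ligand that signals through Igf1r, rose with time after injury in GS striata. In GS libraries it stood at 2.96 and 2.60 CPM intact, 2.97 and 3.50 at 6 h, 4.21 and 5.59 at 3 d, and 8.38 and 11.2 at 15 d. In WT libraries it stood at 3.95 and 4.32 CPM intact, 3.12 and 3.54 at 6 h, 4.77 and 4.43 at 3 d, and 4.99 and 6.85 at 15 d. In each genotype the libraries at 3 d and at 15 d lay above both intact libraries with no overlap, in WT striata at 3 d by little. In GS striata the log2 fold change was 0.82 ± 0.21 at 3 d (adjusted p = 0.00712) and 1.82 ± 0.21 at 15 d (adjusted p = 1.81e-05), and 15 d exceeded 3 d by 1.00 ± 0.20 (adjusted p = 0.0232). In WT striata it was 0.15 ± 0.20 at 3 d (adjusted p = 0.617) and 0.51 ± 0.20 at 15 d (adjusted p = 0.0757), so neither passed, although leaving out WT 15 d replicate 1 took the WT value to 0.73 at 15 d (adjusted p = 0.0324). The 3 d call in GS striata was lost without GS 3 d replicate 2 (0.60, adjusted p = 0.0917) and without GS intact replicate 2 (0.72, adjusted p = 0.0625), and the step from 3 d to 15 d without GS 15 d replicate 2 (0.78, adjusted p = 0.273) or either GS 3 d library (0.81 and 1.22, adjusted p = 0.0621 and 0.084). The GS call at 15 d was kept in all 28 alternatives (adjusted p up to 0.000822), which changed the tool, filter or covariates or left libraries out.

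Markers of several cell types differed from intact striatum in the groups that were high in Igf1. Of 12 phagocytic microglia genes listed, 8 were in the table, and 7 of 8 were higher at 15 d in each genotype, while Gpnmb, Itgax, Clec7a and Cst7 were not in the table. Their summed level at 15 d was 7578 and 10330.4 CPM in GS and 4779 and 8253 CPM in WT libraries, against 2124 to 2179.9 CPM in GS intact and 1945 to 2033 CPM in WT intact libraries. At 3 d it was 3955 and 4703 CPM in GS and 2681 and 3984 CPM in WT libraries. From 3 d to 15 d, 2 of 8 were called higher in GS and 3 of 8 in WT striata. The list's median log2 change in that step was 0.13 in GS and 0.007 in WT striata. Spp1 alone held 815 and 1411 CPM in GS and 311 and 746 CPM in WT libraries at 3 d. At 15 d Spp1 held 363 and 555 CPM in GS and 122 and 366 CPM in WT libraries. In intact libraries it held 0.178 to 0.901 CPM. Genes other than Spp1 thus made up nearly all of the sum in intact libraries and most of it at 3 d and 15 d. The levels of those other genes are not given here. Of 11 homeostatic microglia genes, all 11 were higher at 15 d in GS and 10 in WT striata. At 3 d, 6 of 8 phagocytic genes were called higher in each genotype and 1 lower in GS striata, and Igf1 was called in GS and not in WT striata. Leptomeningeal and fibroblast markers were also higher at 15 d, 6 of 11 in GS and 8 of 11 in WT striata, as were 6 of 10 astrocyte markers in each genotype. The astrocyte markers summed to 6792 to 6989.6 CPM in GS and 6452 to 6983 CPM in WT libraries at 15 d, against 4361 to 4525 CPM in GS intact and 4442 to 4517 CPM in WT intact libraries. Striatal projection neuron markers were lower at 15 d, 10 of 11 in GS and 6 of 11 in WT striata. The part of these cells in the Igf1 change was not tested.

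Igf2, the second ligand, had its highest WT libraries at 15 d, and its GS values were spread from the start. GS libraries stood at 43.0 and 21.2 CPM intact, 16.9 and 26.5 at 6 h, 36.2 and 29.8 at 3 d, and 41.4 and 39.3 at 15 d. WT libraries stood at 18.8 and 21.3 CPM intact, 19.01 and 17.4 at 6 h, 24.4 and 23.0 at 3 d, and 37.3 and 51.8 at 15 d. One GS intact library was as high as the GS libraries at 15 d, whereas both WT libraries at 15 d exceeded every other WT library. In WT striata Igf2 was higher at 15 d by 1.15 ± 0.26 (adjusted p = 0.00528), and in GS striata the change was 0.33 ± 0.26 (adjusted p = 0.343). Without GS intact replicate 1 the GS value was 0.93 and passed (adjusted p = 0.00957). At 6 h the GS change was −0.57 ± 0.26 (adjusted p = 0.169), and without GS intact replicate 2 it was −1.0 (adjusted p = 0.0232).

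Choroid plexus markers were high in several of the libraries that were high in Igf2. All 12 listed markers were in the table and none was at 0. Their summed level at 15 d was 525 and 297 CPM in GS and 531 and 663 CPM in WT libraries, against 804 and 323 CPM in GS intact and 276 and 366 CPM in WT intact libraries. At 6 h it was 303 and 600.0 CPM in GS and 315 to 333 CPM in WT libraries, and at 3 d 412 to 508 CPM in GS and 261 to 308 CPM in WT libraries. At 15 d, 4 of 12 were called higher in WT and 0 of 12 in GS striata. With the choroid plexus marker level as a covariate, Igf2 at 15 d was 0.59 in GS (adjusted p = 0.00775) and 0.52 in WT striata (adjusted p = 0.0723). The WT call was also lost without WT 15 d replicate 2 (0.90, adjusted p = 0.0679) and when WT intact replicate 1 was left out (1.06, adjusted p = 0.056). GS 15 d replicate 2 combined 39.3 CPM of Igf2 with a marker sum of 297 CPM, against sums of 804 and 323 CPM in GS intact libraries. In that library Ttr (34.4 CPM) and Kl (3.86 CPM) lay below both GS intact libraries (359 and 56.9 CPM of Ttr, 18.7 and 6.00 CPM of Kl). Folr1 (0.811 CPM) lay between the GS intact libraries (2.68 and 0.257 CPM). Leptomeningeal and fibroblast markers were also called higher at 15 d, 8 of 11 in WT and 6 of 11 in GS striata. Beyond the covariate, the part of choroid plexus and leptomeningeal cells in the Igf2 changes was not tested.

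**Figure D3:**
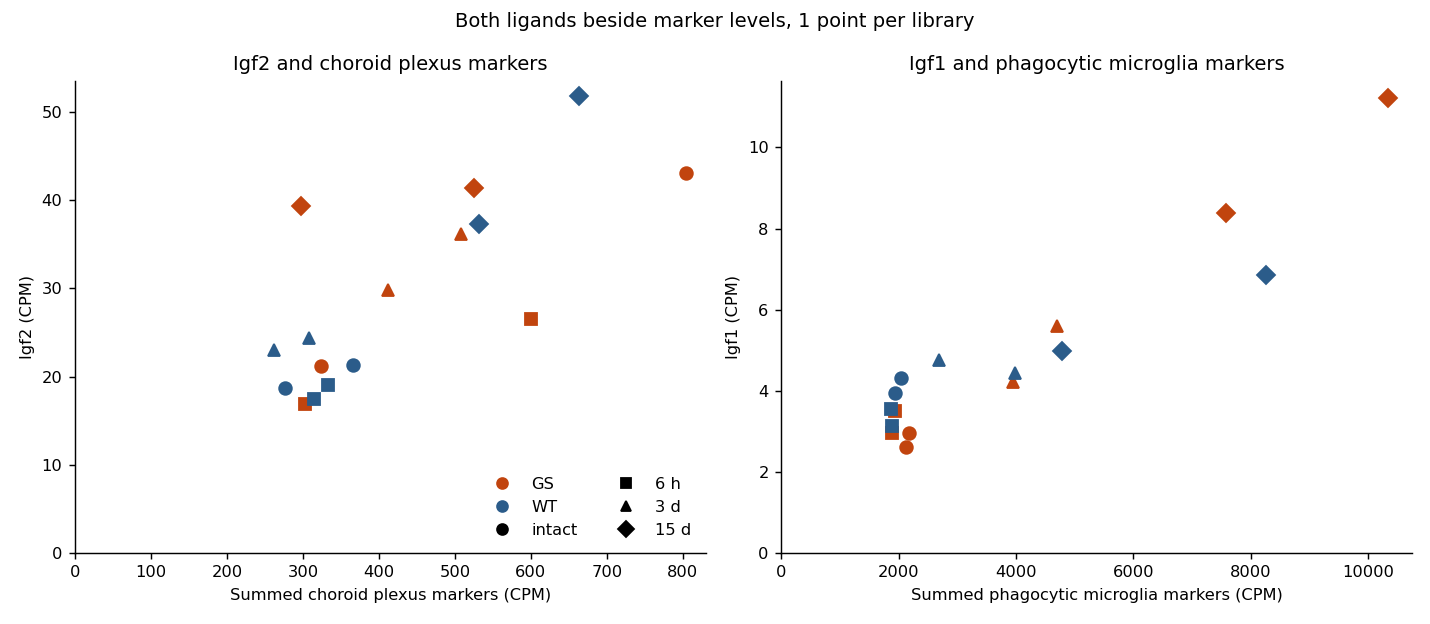
Left, Igf2 against the summed choroid plexus markers; right, Igf1 against the summed phagocytic microglia markers (all in TMM-normalised CPM), 1 point per library, with colour for genotype and shape for stage. The 4 libraries at 15 d have 37.3 to 51.8 CPM of Igf2 at choroid plexus sums of 297 to 663 CPM, and GS 15 d replicate 2 is highest on both axes at the right.

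Neither receptor was called in any comparison, and both kept levels within a narrow range. Igf1r, the signalling receptor, stood at 64.8 and 71.0 CPM in GS intact, 76.9 and 72.5 in GS 6 h, 66.5 and 81.5 in GS 3 d, and 75.8 and 70.5 in GS 15 d libraries. WT libraries held 63.0 and 68.8 CPM intact, 78.4 and 78.8 at 6 h, 74.1 and 66.1 at 3 d, and 70.7 and 76.0 at 15 d. Its highest library was 1.29 times its lowest, the narrowest range of the 10 members. The largest injury change of Igf1r was 0.25 ± 0.09 in WT striata at 6 h (approximate 95% interval 0.05 to 0.45, adjusted p = 0.141), and at 15 d it was 0.11 in GS (interval −0.09 to 0.31) and 0.15 in WT striata (interval −0.05 to 0.35). Igf1r passed in GS striata at 3 d without GS 3 d replicate 1 (0.26, adjusted p = 0.0411) and in WT striata at 6 h in the fit on only those groups (0.25, adjusted p = 0.0481). Igf2r, the clearance receptor for IGF2, lay between 43.3 and 58.3 CPM in all 16 libraries. At 15 d its change was −0.12 ± 0.10 in GS (interval −0.33 to 0.08) and 0.02 ± 0.10 in WT striata (interval −0.19 to 0.22). Igf2r overlaps the antisense gene Airn, and whether counting used strand is not given, but Airn reached at most 0.468 CPM.

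Igfbp5, a binding protein that attaches to extracellular matrix, rose at 3 d and again at 15 d in both genotypes. GS libraries held 116 and 128 CPM intact, 130.1 and 119 at 6 h, 191 and 208 at 3 d, and 403 and 488 at 15 d. WT libraries held 118 and 131 CPM intact, 136 and 142 at 6 h, 175 and 196 at 3 d, and 334 and 426 at 15 d. All libraries at 3 d lay above all intact and 6 h libraries, and all at 15 d above all at 3 d. The log2 fold change at 3 d was 0.71 ± 0.12 in GS (adjusted p = 0.000329) and 0.58 ± 0.12 in WT striata (adjusted p = 0.0023). At 15 d it was 1.87 ± 0.12 in GS (3.66-fold, adjusted p = 6.37e-07) and 1.61 ± 0.12 in WT striata (3.06-fold, adjusted p = 3.21e-06). The step from 3 d to 15 d was 1.16 ± 0.12 in GS (adjusted p = 0.00034) and 1.03 ± 0.12 in WT striata (adjusted p = 0.000931). These calls were kept in all alternatives except WT at 3 d with the cortical marker covariate (0.42, adjusted p = 0.0646) and the WT step fitted on its own groups only (1.04, adjusted p = 0.0804). Its promoter, printed above, held none of the 4 motifs searched.

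Igfbp2, the neighbour of Igfbp5 and a binding protein known from astrocytes, choroid plexus and leptomeninges, had its highest library in each genotype at 3 d. GS libraries held 17.6 and 11.5 CPM intact, 5.16 and 8.61 at 6 h, 30.7 and 34.4 at 3 d, and 18.9 and 19.5 at 15 d. WT libraries held 7.73 and 8.64 CPM intact, 6.44 and 6.12 at 6 h, 19.97 and 34.6 at 3 d, and 11.4 and 20.4 at 15 d. In both genotypes the 3 d and 15 d libraries lay above the intact ones. At 3 d it rose by 1.16 ± 0.29 in GS (adjusted p = 0.00641) and 1.74 ± 0.30 in WT striata (adjusted p = 0.000861). At 15 d the change was 0.40 ± 0.29 in GS (adjusted p = 0.304) and 0.96 ± 0.30 in WT striata (adjusted p = 0.0304). From 3 d to 15 d Igfbp2 changed by −0.76 ± 0.29 in GS (adjusted p = 0.16) and −0.78 ± 0.29 in WT striata (adjusted p = 0.154). Neither step passed, and in WT striata the libraries of these stages overlapped. At 6 h Igfbp2 was lower in GS striata by −1.08 ± 0.30 (adjusted p = 0.0278), and the WT change was −0.38 ± 0.31 (adjusted p = 0.53).

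Some of these Igfbp2 calls turned on single libraries. At 6 h the GS call did not hold when GS intact replicate 1, the library high in choroid plexus markers, was left out (−0.75, adjusted p = 0.221). Leaving out GS 6 h replicate 1 gave −0.76 (adjusted p = 0.241). The leptomeningeal marker covariate gave −0.45 (adjusted p = 0.248) and limma-voom −1.11 (adjusted p = 0.0559). That covariate used only Slc6a13 and Slc22a6, both low in level, and not the longer list of leptomeningeal and fibroblast markers. Slc22a6 held 0.0984 and 0.251 CPM in GS 6 h libraries, against 1.23 and 0.376 CPM in GS intact libraries. The WT call at 15 d was lost without WT 15 d replicate 2 (0.48, adjusted p = 0.36), without WT intact replicate 1 (0.88, adjusted p = 0.157) and without WT intact replicate 2 (1.04, adjusted p = 0.0846), and with the cortical (0.75, adjusted p = 0.126) or choroid plexus covariate (0.61, adjusted p = 0.266). At 3 d the GS call did not hold with GS intact replicate 2 left out (0.88, adjusted p = 0.0788), and the WT call at 3 d was kept in all 28 alternatives.

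Vascular, leptomeningeal, astrocyte and microglia markers differed in the same comparisons as Igfbp2. At 6 h, 8 of 11 endothelial markers were called lower in GS and 2 in WT striata, and 4 of 9 pericyte and smooth muscle markers in GS and 2 in WT striata. The endothelial sum at 6 h was 134 to 156 CPM in GS and 143 to 150.2 CPM in WT libraries, below that of every intact library, and the pericyte sum was 119 to 121 CPM in GS and 119 to 128 CPM in WT libraries, against 165 to 170.5 CPM in GS intact and 156 to 163 CPM in WT intact libraries. Of 12 leptomeningeal and fibroblast markers listed, 11 were in the table. At 6 h 4 of them were called lower in GS and 0 in WT striata, at 3 d 6 higher in GS and 5 in WT striata, and at 15 d 6 higher in GS and 8 in WT striata. They summed to 96.2 to 103 CPM in GS and 89.0 to 92.0 CPM in WT libraries at 6 h, and to 124 to 153 CPM in GS and 101 to 123 CPM in WT libraries at 15 d, against 84.6 to 93.1 CPM in GS intact and 83.2 to 92.3 CPM in WT intact libraries. The sum in GS striata at 6 h was thus above intact while 4 of its genes were lower. Of 10 astrocyte markers, 8 were called higher in GS and 6 in WT striata at 3 d, when Igfbp3, Igfbp5 and Igfbp7 were also higher, with sums of 6103 to 7585 CPM in GS and 5842 to 6180.1 CPM in WT libraries. Of 11 homeostatic microglia markers, 5 were called lower in GS and 3 in WT striata at 6 h. All 11 were called higher at 3 d in each genotype, and 11 in GS and 10 in WT striata at 15 d. Beyond the marker covariates, the part of these cells in the Igfbp2, Igfbp3 and Igfbp5 changes was not tested.

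Igfbp3, the main carrier of IGFs in serum, rose at 3 d in both genotypes and was lower again at 15 d. GS libraries held 5.76 and 5.06 CPM intact, 7.94 and 6.84 at 6 h, 17.1 and 22.6 at 3 d, and 8.17 and 8.54 at 15 d. WT libraries held 6.11 and 7.85 CPM intact, 7.31 and 8.01 at 6 h, 13.2 and 22.9 at 3 d, and 5.78 and 8.22 at 15 d. The 4 libraries at 3 d lay above all 12 others. The change at 3 d was 1.87 ± 0.24 in GS (3.66-fold, adjusted p = 5.32e-05) and 1.37 ± 0.23 in WT striata (2.59-fold, adjusted p = 0.000801), and both calls were kept in all 28 alternatives. At 15 d Igfbp3 was lower than at 3 d, by −1.25 ± 0.23 in GS (adjusted p = 0.0175) and −1.37 ± 0.23 in WT striata (adjusted p = 0.00829). Against intact striatum the value at 15 d was 0.63 ± 0.24 in GS (adjusted p = 0.0524) and 0.00 ± 0.24 in WT striata (adjusted p = 0.997). The GS value passed in DESeq2 (adjusted p = 0.022) and in the fit on those groups alone (0.64, adjusted p = 0.00677). The GS step from 3 d was lost without GS 3 d replicate 2 (−1.03, adjusted p = 0.165) or either GS 15 d library (−1.21 and −1.28, adjusted p = 0.107 and 0.17). The WT step was lost in the fit on its own groups (−1.37, adjusted p = 0.159), with the choroid plexus covariate (−1.31, adjusted p = 0.097) and without 3 WT libraries high in cortical markers (−1.14, adjusted p = 0.083).

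Igfbp7, a related protein of lower IGF affinity known from vessel walls, was higher at 3 d and 15 d in both genotypes. GS libraries held 12.8 and 12.1 CPM intact, 11.7 and 9.01 at 6 h, 17.9 and 25.1 at 3 d, and 21.1 and 25.1 at 15 d. WT libraries held 9.81 and 8.30 CPM intact, 9.39 and 9.40 at 6 h, 19.3 and 21.7 at 3 d, and 12.8 and 19.6 at 15 d. In each genotype the 3 d and 15 d libraries lay above the intact and 6 h libraries. At 3 d the change was 0.79 ± 0.20 in GS (adjusted p = 0.00626) and 1.18 ± 0.20 in WT striata (adjusted p = 0.000773), and at 15 d 0.89 ± 0.20 in GS (adjusted p = 0.00248) and 0.83 ± 0.20 in WT striata (adjusted p = 0.00743). The GS call at 3 d was lost without GS 3 d replicate 2 (0.52, adjusted p = 0.106), and the WT call at 15 d with WT 15 d replicate 2 (0.50, adjusted p = 0.131) or WT intact replicate 2 (0.72, adjusted p = 0.0655) left out. Endothelial markers summed to 253 to 315 CPM in GS and 223 to 273 CPM in WT libraries at 3 d, against 225 to 240.0 CPM in GS intact and 176 to 191 CPM in WT intact libraries. At 3 d, 3 of 11 were called higher in GS and 4 of 11 in WT striata. At 15 d the sum was 221 to 246 CPM in GS and 191 to 231 CPM in WT libraries, with 0 of 11 called higher and 2 lower in GS striata and 1 higher and 1 lower in WT striata. Markers of other cells moved too, and all 11 homeostatic microglia markers were called higher at 3 d in each genotype. At 15 d 11 of these microglia markers were called higher in GS and 10 in WT striata. Of 10 monocyte and macrophage markers listed, 7 were in the table. At 3 d, 5 of 7 were called higher in GS and 6 of 7 in WT striata. At 15 d, 3 of 7 were called higher in each genotype and 1 lower in GS striata. The part of any of these cells in the Igfbp7 change was not tested. Igfbp7 overlaps Polr2b on the opposite strand, which lay between 59.8 and 70.8 CPM in all libraries, and reads shared between the genes were not tested for.

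Igfbp4, which is cut by the protease PAPP-A to free its ligand, and Igfbp6, which prefers IGF2, were the members called lower than in intact striatum at 3 d in GS and at 15 d in WT striata. Igfbp4 stood at 70.3 and 46.3 CPM in GS intact, 58.2 and 51.5 in GS 6 h, 44.6 and 31.8 in GS 3 d, and 42.4 and 49.4 in GS 15 d libraries. In WT libraries it stood at 62.8 and 60.9 CPM intact, 58.4 and 52.4 at 6 h, 48.8 and 49.8 at 3 d, and 44.4 and 44.3 at 15 d. The WT libraries at 3 d and 15 d all lay below both WT intact ones, while GS 15 d and GS intact libraries overlapped. At 3 d Igfbp4 was lower by −0.61 ± 0.17 in GS striata (adjusted p = 0.0109), and the WT value was −0.33 ± 0.16 (adjusted p = 0.156). At 15 d it was −0.34 ± 0.16 in GS (adjusted p = 0.118) and lower by −0.48 ± 0.17 in WT striata (adjusted p = 0.045). The GS call was lost without GS 3 d replicate 2 (−0.39, adjusted p = 0.148) or GS intact replicate 1 (−0.28, adjusted p = 0.215), and at 15 d the GS value passed without GS intact replicate 2 (−0.62, adjusted p = 0.00866). The WT call lay close to the threshold and was lost without either WT intact library (−0.46 and −0.50, adjusted p = 0.161 and 0.109) or either WT 15 d library (−0.48 and −0.48, adjusted p = 0.117 and 0.163), and narrowly (−0.48, adjusted p from 0.0503 to 0.0557) without any one of the 4 libraries at 6 h or the 2 GS libraries at 15 d.

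Igfbp6 had the second lowest count in a library of all members, and moved within a narrow range. GS libraries held 7.64 and 7.68 CPM intact, 7.25 and 7.48 at 6 h, 6.28 and 5.27 at 3 d, and 6.46 and 5.77 at 15 d. WT libraries held 9.19 and 8.13 CPM intact, 8.44 and 8.16 at 6 h, 7.63 and 6.87 at 3 d, and 5.83 and 6.43 at 15 d. In each genotype the 3 d and 15 d libraries lay below both intact ones. At 3 d it was lower by −0.41 ± 0.13 in GS striata (adjusted p = 0.0276), with −0.26 ± 0.13 in WT striata (adjusted p = 0.161). At 15 d the change was −0.33 ± 0.13 in GS (adjusted p = 0.0675) and −0.50 ± 0.13 in WT striata (adjusted p = 0.0132). The GS call was lost without GS 3 d replicate 2 (−0.29, adjusted p = 0.201), GS intact replicate 1 (−0.41, adjusted p = 0.093) or GS intact replicate 2 (−0.40, adjusted p = 0.0929), and the WT call without WT intact replicate 1 (−0.41, adjusted p = 0.117). Leaving out WT 15 d replicate 1 also ended the WT call (−0.43, adjusted p = 0.0763), as did a fit on only those groups (−0.49, adjusted p = 0.0608).

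Striatal projection neuron markers were lower in these groups, and also in GS striata at 6 h, where neither Igfbp4 nor Igfbp6 was called. Of 11 markers, 6 were called lower at 6 h, 8 at 3 d and 10 at 15 d in GS striata, and 0 at 6 h, 1 at 3 d and 6 at 15 d in WT striata, and 1 was called higher at each stage in GS and at 3 d in WT striata. In GS striata at 6 h Igfbp4 was at −0.09 ± 0.16 (adjusted p = 0.777) and Igfbp6 at −0.06 ± 0.13 (adjusted p = 0.82). The summed level of the markers was 8489 to 8875 CPM in GS and 9169 to 9222 CPM in WT libraries at 6 h, 6962 to 7715 CPM in GS and 7402 to 8484 CPM in WT libraries at 3 d, and 6510.1 to 6641 CPM in GS and 6437 to 7047 CPM in WT libraries at 15 d, against 9654 to 11012 CPM in GS intact and 8356 to 9093 CPM in WT intact libraries. Of 7 striatal interneuron markers, 1 was called lower at 6 h, 5 at 3 d and 6 at 15 d in GS striata. In WT striata 0 of them were called lower at 6 h, 1 at 3 d and 6 at 15 d. The part of either kind of neuron in the lower Igfbp4 and Igfbp6 was not tested.

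Summed per length of exon, RNA for the 6 binding proteins was higher in every library at 3 d and 15 d than in any intact or 6 h library, and at 15 d most of it was Igfbp5. The sum was 52.5 to 64.0 CPM per kb in the 8 intact and 6 h libraries, 78.1 to 94.1 in the 4 libraries at 3 d, and 89.5 to 131.6 in the 4 at 15 d. Igfbp5 made up 30.1 to 41.9% of it in intact and 6 h libraries, 34.7 to 37.7% at 3 d and 59.5 to 62.2% at 15 d. The ligands together summed to 3.68 to 7.82 CPM per kb in intact libraries and 7.03 to 9.74 at 15 d. These sums are descriptions with no test.

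**Figure D4:**
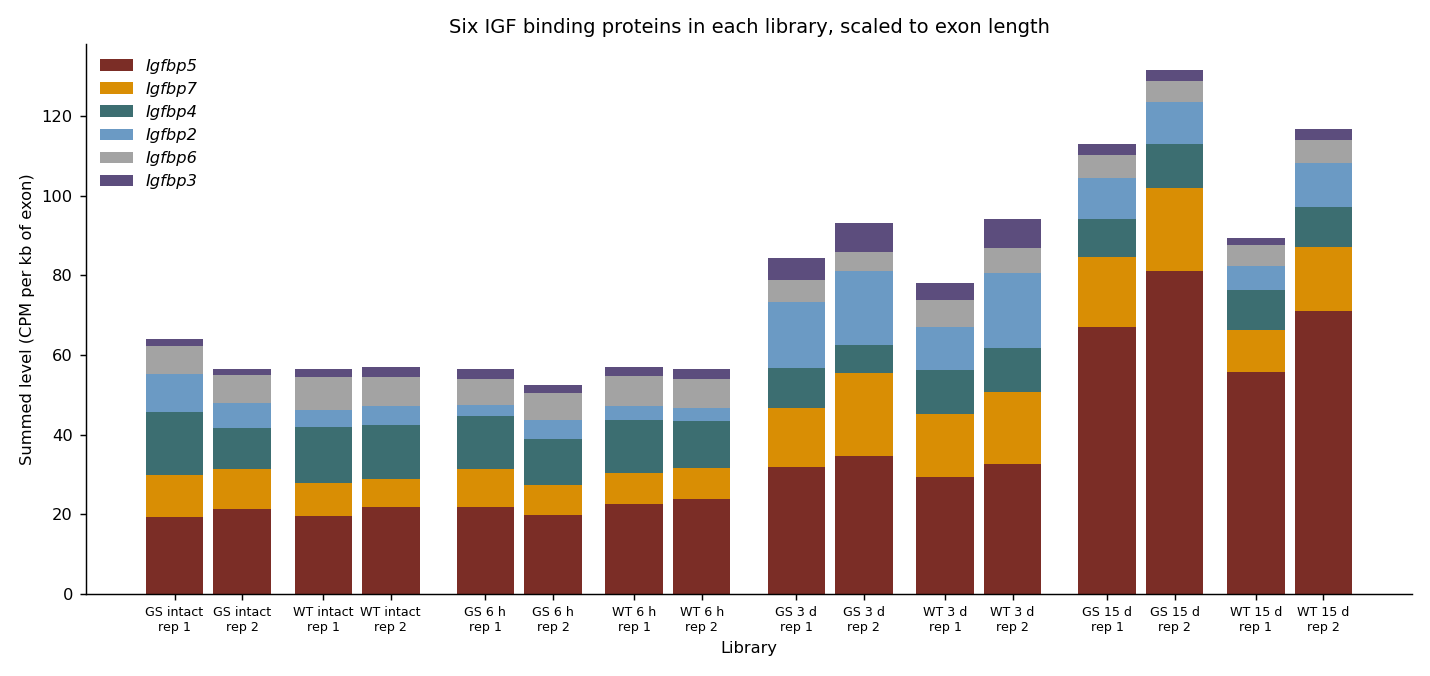
Summed level of the 6 binding proteins in each library (CPM per kb of exon, stacked from 0), by stage with GS left of WT. At 3 d the Igfbp2, Igfbp3, Igfbp5 and Igfbp7 segments are all larger than in intact striata, and at 15 d Igfbp5 makes up 59.5 to 62.2% of each bar.

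No member differed between GS and WT striata after adjustment. At each stage 0 of 10 were called, while the share of all genes called was 0.0159% in intact, 0.00532% at 6 h, 0.0106% at 3 d and 0.00532% at 15 d striata. Averaged over the 4 stages 0 of 10 were called, against 0.0106% of all genes. DESeq2 and limma-voom also called 0, and at an unadjusted p under 0.05 edgeR gave 4 members in intact striata, 0 at 6 h, 2 at 3 d, 2 at 15 d and 4 in the average. The widest difference at 15 d was that of Igf1, with 8.38 and 11.2 CPM in GS and 4.99 and 6.85 CPM in WT libraries, a log2 difference of 0.73 ± 0.20 (interval 0.31 to 1.15, adjusted p = 0.969). In intact striata Igf1 was at 2.96 and 2.60 CPM in GS and 3.95 and 4.32 CPM in WT libraries, a difference of −0.57 ± 0.21 (adjusted p = 0.357). The Igf1 differences in intact striata and at 15 d were in opposite directions, and neither passed. The Igfbp7 difference of GS over WT was 0.46 ± 0.20 in intact striata (adjusted p = 0.428) and 0.52 ± 0.19 at 15 d (adjusted p = 0.969). On average it was 0.30 ± 0.10 (adjusted p = 0.402), so none of these passed. Igfbp2 in intact striata differed by 0.83 ± 0.30 (adjusted p = 0.352) and Igf2 by 0.68 ± 0.26 (adjusted p = 0.378), and GS intact replicate 1 held the highest value of both.

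The change with injury was also compared between the genotypes as an interaction, and 0 of 10 members were called at 6 h, 3 d or 15 d, where the shares of all genes were 0.0106%, 0% and 0%. DESeq2 and limma-voom called 0 as well, and edgeR gave 0, 1 and 2 members at an unadjusted p under 0.05. The largest was Igf1 at 15 d, whose change in GS striata exceeded that in WT striata by 1.30 ± 0.29 (interval 0.69 to 1.92, adjusted p = 0.873). At 3 d the Igf1 interaction was 0.66 ± 0.29 (adjusted p = 0.478). Over the alternatives the Igf1 interaction at 15 d ran from 1.08 to 1.64, with adjusted p of 0.371 to 1. The effect was in the same direction in all of them and did not pass the threshold in any. For Igfbp5 the interaction at 15 d was 0.26 ± 0.16 (interval −0.09 to 0.61), and for Igf2 −0.82 ± 0.36 (interval −1.60 to −0.04, adjusted p = 0.881). An adjusted p above the threshold does not show that the genotypes respond alike.

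**Figure D5:**
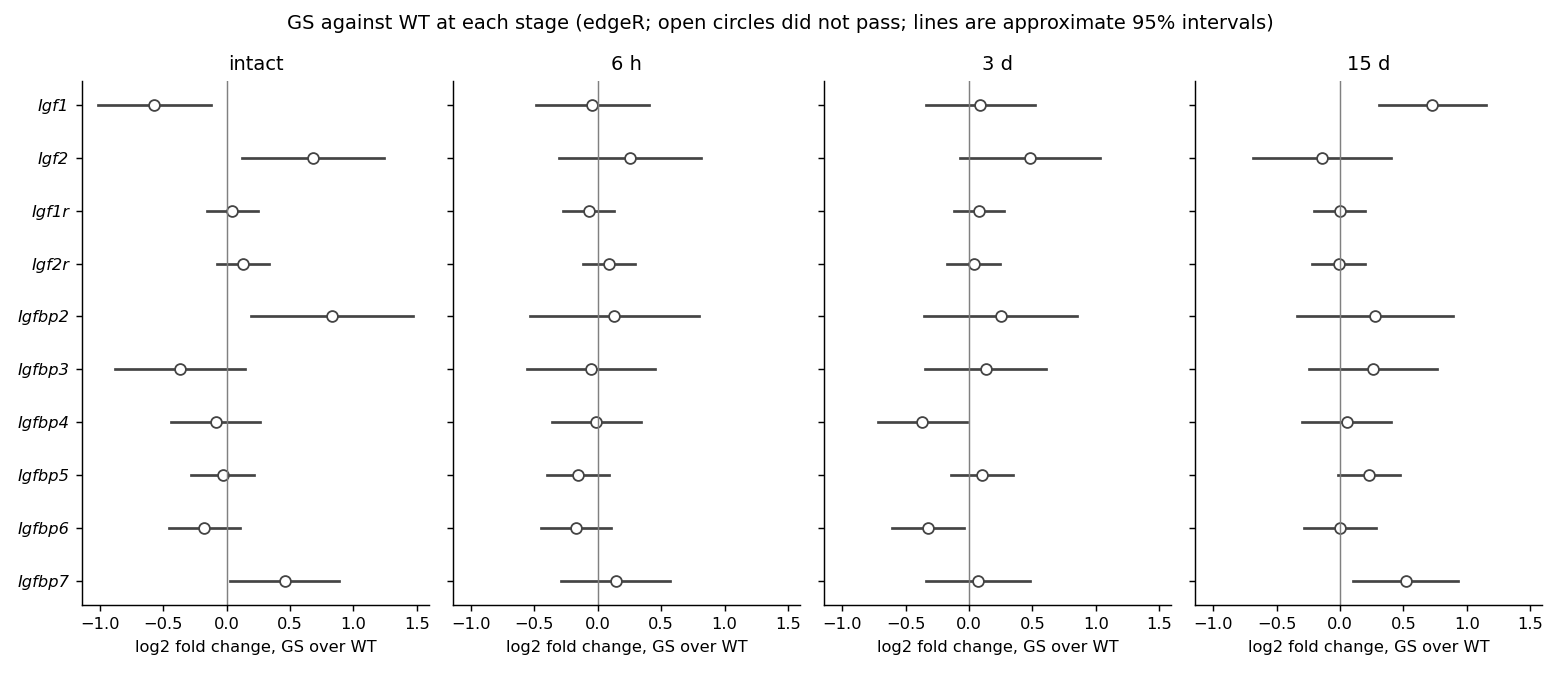
Log2 difference of GS over WT for each member (horizontal axis) in intact striata and at 6 h, 3 d and 15 d; lines are approximate 95% intervals and all points are open because none passed an adjusted p of 0.05. Igf1 is at −0.57 in intact striata and 0.73 at 15 d, and Igf1r and Igf2r stay near 0 at each stage.

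Single partners downstream of the receptor, among them the docking adaptors Irs1 and Irs2, were higher after injury, while the counts over the whole list of partners stood on both sides of the share of all genes called. The list held 44 partners of the pathway (adaptors, kinases, proteases, other carriers and integrins), of which 38 were in the table, and Igfbp1, Igfals, Pappa2, Igf2bp1, Igf2bp3 and H19 were not analysed here. At 6 h, 6 were called higher and 4 lower in GS (26.3% of 38, against 13.8% of all genes), and 3 higher in WT striata (7.89%, against 4.09%). At 3 d, 11 were higher and 2 lower in GS (34.2%, against 35.1%), and 6 higher and 1 lower in WT striata (18.4%, against 27.4%). At 15 d, 9 were higher and 8 lower in GS (44.7%, against 37.1%), and 6 higher in WT striata (15.8%, against 25.4%). The counts therefore say nothing particular about the list. The median log2 fold change of the list at 15 d was −0.02 in GS and −0.01 in WT striata, beside −0.01 in GS and −0.02 in WT striata over all genes. No partner was called between genotypes at any stage or in the interaction by edgeR, and DESeq2 called 1 at 6 h and 1 in the average.

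Irs2 stood at 89.1 and 69.5 CPM in GS and 119 and 90.4 CPM in WT libraries at 3 d, against 42.9 and 45.3 CPM in GS intact and 39.5 and 52.0 CPM in WT intact libraries. It rose at 3 d by 0.85 ± 0.15 in GS (adjusted p = 0.000683) and 1.19 ± 0.15 in WT striata (adjusted p = 0.000109). Irs1 rose at 15 d by 0.98 ± 0.16 in GS (adjusted p = 0.000344) and 1.06 ± 0.16 in WT striata (adjusted p = 0.000421). Itgb3, the β3 subunit of the vitronectin receptor, rose at 3 d by 1.75 ± 0.27 in GS and 1.37 ± 0.28 in WT striata and at 15 d by 1.67 ± 0.27 in GS and 1.31 ± 0.28 in WT striata, with adjusted p of 0.000253, 0.0027, 0.000315 and 0.00371 in that order. Its partner subunit Itgav rose at 3 d by 0.59 ± 0.07 in GS striata (adjusted p = 4.38e-05), and Shc1, an adaptor to the MAP kinase branch, by 0.72 ± 0.16 (adjusted p = 0.00367), a call lost without GS 3 d replicate 2 (0.53, adjusted p = 0.0599). With the cortical covariate Itgb3 in WT striata at 3 d was 1.15 (adjusted p = 0.0658). Ide, the insulin-degrading enzyme, rose at 3 d by 0.47 ± 0.07 in WT striata (adjusted p = 0.000267). In GS libraries Ide held 61.4 and 70.2 CPM at 3 d, against 43.4 and 44.4 CPM intact. Itgav in WT libraries held 138 and 131 CPM at 3 d, against 96.0 and 103 CPM intact. Partners were named by the size of their change within a comparison, so a change given for a single genotype does not set the genotypes apart.

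Igfbpl1, a relative of the binding proteins, held 5.16 and 7.21 CPM in GS and 4.29 and 6.96 CPM in WT libraries at 15 d, against 0.889 and 1.09 CPM in GS intact and 1.19 and 1.54 CPM in WT intact libraries. The groups did not overlap, and the change was 2.64 ± 0.41 in GS (adjusted p = 0.000187) and 2.04 ± 0.40 in WT striata (adjusted p = 0.00199), the largest of the list at that time. Stc1, which codes for a stanniocalcin that inhibits PAPP-A, held 4.66 and 4.54 CPM in GS 15 d libraries and 8.75 and 8.88 CPM in GS intact libraries, a change of −0.94 ± 0.19 (adjusted p = 0.00134). Akt2, a kinase below PI3K, was lower at 6 h in GS striata by −0.45 ± 0.06 (adjusted p = 0.000703).

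Partner counts at 6 h and between 3 d and 15 d turned on single libraries. In WT striata at 6 h the 3 called were Foxo3, a transcription factor held back by AKT (0.34 ± 0.07, adjusted p = 0.0126), Pik3r1, a regulatory subunit of PI3K (0.30 ± 0.07, adjusted p = 0.0297), and the kinase gene Rps6kb1 (0.29 ± 0.07, adjusted p = 0.0285). The count was 0 without WT intact replicate 1 or WT 6 h replicate 2 and 1 without WT intact replicate 2 or WT 6 h replicate 1. In GS striata at 6 h the count of 10 became 5 without GS intact replicate 1 and 3 without GS intact replicate 2 or either GS 6 h library. At 3 d the GS count of 13 became 8 without GS intact replicate 1 and 6 without GS 3 d replicate 2, and the WT count of 7 became 4 without WT intact replicate 1. From 3 d to 15 d, Irs1 was called higher (0.73 ± 0.16, adjusted p = 0.025) and Igf2bp2 and Htra1 lower (−0.73 ± 0.18 and −0.43 ± 0.11, adjusted p = 0.0422 and 0.0476) in WT striata, and Igfbpl1 higher in GS striata (1.65 ± 0.38, adjusted p = 0.0408). With each library left out the count ran from 0 to 4 in both genotypes, and none of these 4 calls was kept in all alternatives.

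The genes whose log2 CPM followed each member most closely over the 16 libraries were taken among genes with a mean of at least 1 CPM. The libraries share stages, so these Pearson r values mainly describe time courses and carry no test. Igfbp5 was followed by Apoc1 (r = 0.984), Creg1 (0.981) and Lag3 (0.980), and Igfbp3 by Stab1 (0.965), Cep55 (0.964) and Adam8 (0.962). For Igfbp2 the closest were Tmem119 (0.964), Lman2 (0.960) and Plod1 (0.956), and for Igfbp7 Myh9 (0.975), Slc16a3 (0.964) and Trim47 (0.964). Igf1 was nearest to Evc2 (0.947), Asph (0.935) and Hivep3 (0.932), and Igf2 to Myo16 (0.899), Slc13a4 (0.893) and Rps29 (0.877). Igfbp6 was nearest to Crhr1 (0.912), Crtac1 (0.905) and Dusp22 (0.903), and Igfbp4 to Entpd6 (0.888), Plppr2 (0.887) and Tubg2 (0.884). The receptors had the loosest matches, with Tnrc6b (0.856), Chd9 (0.835) and Kif1b (0.830) for Igf1r and Aars (0.888), Nf2 (0.856) and Ddb1 (0.842) for Igf2r. Among the members themselves, Igf1 and Igfbp5 had r = 0.904 over the same libraries.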

How the data were processed

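RNA was isolated with RNeasy kits and TruSeq RNA libraries were prepared, per the labels' protocols. The values deposited are raw counts of reads for each gene, per the file headers. The submitters' processing notes name FastQC 0.11.7 and build mm10, and the aligner, counter and strand setting were not given in the sources used here. By elimination, columns headed NT were read as WT: WT and GS are the only genotypes in the labels, and the GS columns matched the GS samples.

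edgeR 4.0.16 in R 4.3.3 was used (filterByExpr by group, TMM, and glmQLFit and glmQLFTest with 1 coefficient per group over 16 libraries). The 16 contrasts were adjusted by the Benjamini-Hochberg method over 18813 genes at an adjusted p under 0.05. The common biological coefficient of variation was 10.1% on 8 residual degrees of freedom, and TMM factors ran from 0.947 to 1.03. Standard errors are the absolute log2 fold change over the square root of F, so the 95% intervals are approximate. Replicates are labelled biological. Their counts differed by more than sampling noise, with 10.0 to 33.7 as the range of chi-square over its degrees of freedom, and p-values measure the spread between these libraries. The code was tested on simulated data.

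The alternatives were DESeq2 1.42.0, limma-voom 3.58.1, RLE scaling, other filters, fits on fewer groups, a replicate block, 3 marker covariates, 3 WT libraries high in cortical markers left out, each library left out and, chosen after seeing the data, the 3 libraries with the most Ttr left out. Slc17a7 stood at 136 CPM (intact), 72.7 CPM (6 h) and 35.0 CPM (15 d) in the 3 WT libraries left out, 1 from each of these groups. The 3 libraries with the most Ttr held 359 CPM (GS intact), 227 CPM (WT 15 d) and 192 CPM (GS 6 h). The leptomeningeal covariate was the mean log2 level of Slc6a13 and Slc22a6, and the cortical and choroid plexus covariates used their whole marker lists. Gene positions and exonic lengths are from GENCODE M21 (GRCm38). All members are named in each comparison described. Partners named come from the 4 largest changes per comparison among called partners whose mean reached 1 CPM, and some of these are given only in counts. Genes of like pattern are the 3 with the highest Pearson r, and marker genes are given as levels. Members and lists were chosen with earlier results of these data known. No amino acid sequences were used here.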

Additional observations from a re-analysis of the deposited data

How the results depend on the processing

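Over the 28 alternatives no member called in a comparison reversed its direction. Of 26 member calls over all comparisons, RLE scaling and DESeq2 kept 26, limma-voom 24, no low-count filter 25, the stricter filter 26, the fit on only the groups compared 22, the cortical, choroid plexus and leptomeningeal covariates 22, 23 and 25, the fit without 3 WT libraries 21 and the fit without the 3 libraries with the most Ttr 19. With the replicate block 26 were kept, and Igf1 in WT striata at 15 d (0.51, adjusted p = 0.0493) and Igfbp3 in GS striata at 15 d (0.62, adjusted p = 0.0294) were gained. The replicate numbers were not taken to pair libraries, since 3 of 28 correlations of same-numbered deviations exceeded 0.1 (range −0.099 to 0.174).

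The count of members called moved by more than 1.5 times as follows, and the cause was not tested. In WT striata at 6 h it was 1 with only the groups compared, against 0. In WT striata at 15 d it was 2 without the 3 WT libraries and 2 without the 3 libraries with the most Ttr, against 6, and 2 to 6 with each library left out. In GS striata at 6 h it was 0 with limma-voom, the leptomeningeal covariate or the 3 libraries with the most Ttr left out, against 1, and 0 to 2 with each library left out. In GS striata at 15 d it was 5 without the 3 libraries with the most Ttr, against 3, and in GS striata at 3 d 3 to 8 with each library left out, against 7. From 3 d to 15 d it was 1 in WT striata with the choroid plexus covariate or without the 3 WT libraries and 0 with only the groups compared, against 2, and 1 to 3 in GS striata with each library left out. For WT striata at 15 d, the losses named by gene above do not include the fits without 3 libraries. Both fits left 1 library in the WT 15 d group, and the fit without the 3 WT libraries also left 1 in WT intact. In that fit Igf2 (1.28), Igfbp2 (1.24), Igfbp4 (−0.46) and Igfbp6 (−0.34) lost their calls. Without the 3 libraries with the most Ttr, Igfbp2 (0.48), Igfbp4 (−0.48), Igfbp6 (−0.57) and Igfbp7 (0.50) lost theirs. Depth limits no member, the lowest count being 152, and the 2 libraries per group set the precision.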
